A study of Mus musculus with 4 samples.

Results

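Endothelial genes were examined as 10 named transcripts, Kdr, Flt1, Pecam1, Cdh5, Tek, Tie1, Etv2, Tal1, Sox18 and Emcn, chosen by symbol out of 24831 genes counted in mouse somitic gastruloids. All 10 were found, and all 10 passed the filter on low counts that left 13602 genes for testing. Gastruloids are aggregates of embryonic stem cells that elongate in culture and form an axis with presomitic tissue and somites. The cells were of the line E14_triple reporter, and all of them, in both groups, carried an HA epitope with the FKBP12F36V degron on the endogenous Zeb2 gene, which encodes a zinc finger repressor. The tested gastruloids received 100 nM dTAG-13, a small molecule that recruits a ubiquitin ligase to the degron, at 72 h and 96 h. The gastruloids they are set against are labelled untreated, and the growth protocol gives DMSO as the control. In both groups 300 cells were sorted into each well, 3 μM of the WNT pathway activator CHIR99021 was given at 48 h, and the aggregates were moved into 10% Matrigel at 96 h. There were 2 dTAG-13 and 2 untreated libraries, numbered 1 and 2 in each group. What a number marks, and whether libraries are of separate cultures, is stated by no label. The p-values below therefore reflect the scatter among 4 libraries, and that scatter may be technical. For number 2 against number 1, the fit leaves 1 residual degree of freedom per gene. Its errors and p-values therefore rest mostly on scatter pooled over the genes tested, and little on a gene's own libraries.

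Reads counted in genes came to between 11491330 and 12716172 per library. Reads outside genes were 29.23% and 25.3% of the total in dTAG-13 libraries 2 and 1, and 24.12% and 35.65% in untreated libraries 2 and 1, so neither number held both high shares. All 11 somite and presomitic markers found among the counted genes were measured, with a summed level of 221 and 283 CPM (reads scaled to library size with TMM factors) in dTAG-13 libraries 2 and 1 and of 367 and 452 CPM in untreated libraries 2 and 1. All 4 libraries bear the same somitic label, so these sums do not test it. dTAG-13 acts on the ZEB2 protein, which RNA does not measure, so Zeb2 mRNA checks no label here.

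Endothelial cells line blood vessels and arise from mesoderm that expresses Kdr, under the ETS factor ETV2, often beside the first blood cells. Vascular endothelial growth factor signals through KDR, and FLT1 also binds it and limits its access to KDR. Angiopoietins signal through TEK, and TIE1 is a related receptor that modulates TEK. ETS proteins bind DNA at a GGAA core.

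Promoter sequences of 7 of the 10 genes were matched by symbol in RefSeq (GRCm38.p6), and Pecam1, Cdh5 and Sox18 were not among them. The 250 bases before the start site are shown for the receptors Kdr and Flt1, for the ETS factor gene Etv2 and for Emcn, which span the smallest to the largest difference between the replicate numbers among the 9 genes that differed. GGAA and its reverse complement TTCC are in capitals, and all 4 are read 5′ to 3′ along the gene's strand.
Kdr (chr5:75978456-75978705, minus strand): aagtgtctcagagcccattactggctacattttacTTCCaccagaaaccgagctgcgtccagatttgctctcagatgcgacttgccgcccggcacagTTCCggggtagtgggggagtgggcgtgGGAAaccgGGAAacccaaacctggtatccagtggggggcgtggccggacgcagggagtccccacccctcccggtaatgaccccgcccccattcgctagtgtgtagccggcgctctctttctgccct
Flt1 (chr5:147726012-147726261, minus strand): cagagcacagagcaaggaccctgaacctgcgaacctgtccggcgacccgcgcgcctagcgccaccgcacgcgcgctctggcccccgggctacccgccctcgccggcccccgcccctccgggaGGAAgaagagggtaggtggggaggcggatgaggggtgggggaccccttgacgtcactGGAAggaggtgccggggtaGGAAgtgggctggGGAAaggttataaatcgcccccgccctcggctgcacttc
Etv2 (chr7:30635853-30636102, minus strand): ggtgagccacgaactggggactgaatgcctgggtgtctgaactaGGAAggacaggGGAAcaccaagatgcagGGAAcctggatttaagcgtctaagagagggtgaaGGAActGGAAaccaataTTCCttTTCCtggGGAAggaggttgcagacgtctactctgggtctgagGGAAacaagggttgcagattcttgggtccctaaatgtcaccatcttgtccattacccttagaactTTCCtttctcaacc
Emcn (chr3:137340828-137341077, plus strand): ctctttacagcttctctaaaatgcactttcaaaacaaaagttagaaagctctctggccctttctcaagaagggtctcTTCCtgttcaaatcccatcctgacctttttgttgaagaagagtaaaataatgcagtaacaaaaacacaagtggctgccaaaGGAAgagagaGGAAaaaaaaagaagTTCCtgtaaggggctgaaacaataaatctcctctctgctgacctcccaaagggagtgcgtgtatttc
Searched on both strands, GGAA occurred 10 times before Etv2, 7 times before the RefSeq start of Tie1 and 4 times each before Kdr, Flt1 and Emcn. It occurred 4 and 3 times before the 2 starts of Tal1 and 2 times before Tek. The median was 3 over 32851 promoter windows of the same length, of which 93.4% held it. In the annotation GENCODE M21 the Tie1 gene, on the minus strand, reaches 118490061. Most of its window (118489850 to 118490099) thus lies inside the gene by that annotation. The longer AGGAAG, which contains GGAA, was found before Flt1, Tie1, Etv2 and Emcn and is in 29.5% of all windows. CANNTG, the E-box that factors such as TAL1 bind, was found before Kdr, Tek, Tie1 and Emcn and is in 66.2% of all windows, and AACAAT, a SOX core, before Tek and Emcn and in 9.42%. These are matches of letters and show no binding.

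The level of these genes differed between the replicate numbers. In the libraries numbered 2, 9 of the 10 were lower than in those numbered 1, by 2.27-fold for Flt1 to 9.45-fold for Emcn, and Pecam1 did not pass the test. Emcn passed the filter on low counts only through the libraries numbered 1. The comparison of numbers was made in a fit that also held the group. Over all genes tested, 12.7% were called between the numbers at an adjusted p under 0.05, 7.51% lower and 5.20% higher in number 2. The median log2 fold change of the 10 genes was -1.43, against 0.00 over all genes tested. The genes were chosen with such results known, so their count is a description of this set. In whole gastruloids, fewer endothelial cells and less RNA per endothelial cell cannot be told apart.

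Kdr, the main signalling receptor for vascular endothelial growth factor (chromosome 5, 75932827 to 75978458 in GRCm38), was at 15.5 and 80.4 CPM in dTAG-13 libraries 2 and 1 and at 12.8 and 103 CPM in untreated libraries 2 and 1. Both libraries numbered 2 were thus far below both numbered 1, while the treatment groups overlapped. Number 2 averaged 14.1 ± 1.87 CPM and number 1 averaged 91.6 ± 15.9 CPM (SD, n = 2 each). The log2 fold change was -2.69 ± 0.15 (SE), and edgeR gave it an adjusted p of 3.93e-65. With the group term dropped, the adjusted p from edgeR was 0.000161. Flt1, the decoy-type receptor (chromosome 5, 147561604 to 147726011), was at 39.4 and 85.4 CPM in dTAG-13 libraries 2 and 1 and at 29.5 and 70.3 CPM in untreated libraries 2 and 1. It too separated the numbers without overlap, with a smaller log2 fold change of -1.18 ± 0.14 (adjusted p = 2.71e-15). The 95% interval ran from -2.98 to -2.39 for Kdr and from -1.45 to -0.91 for Flt1, on the log2 scale.

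The ratio of the 2 receptor transcripts thus differed between the numbers. Kdr reads per Flt1 read, a ratio free of any scaling between libraries, came to 0.392 and 0.434 in dTAG-13 and untreated libraries 2, against 0.941 and 1.46 in dTAG-13 and untreated libraries 1. Per kilobase of exon (the union of the gene's GENCODE M21 exons, which may not be the annotation used for counting), Kdr was the first of the 10 in both libraries numbered 1, at a mean of 10.1 RPKM, ahead of Flt1 at 5.76 RPKM. In those numbered 2 it had a mean of 1.57 RPKM, below Flt1 at 2.55 RPKM.

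The angiopoietin receptor Tek (chromosome 4, 94739289 to 94874976) was at 4.76 and 13.6 CPM in dTAG-13 libraries 2 and 1 and at 6.05 and 15.4 CPM in untreated libraries 2 and 1. Tie1, its partner receptor (chromosome 4, 118471191 to 118490061), was at 0.340 and 3.58 CPM in dTAG-13 libraries 2 and 1 and at 1.07 and 6.25 CPM in untreated libraries 2 and 1. Number 2 was below number 1 in both groups for both genes. The log2 fold changes were -1.43 ± 0.25 for Tek (adjusted p = 3.96e-07) and -2.83 ± 0.44 for Tie1 (adjusted p = 5.18e-09). Tie1 reads per Tek read were 0.0714 and 0.176 in dTAG-13 and untreated libraries 2, against 0.262 and 0.407 in dTAG-13 and untreated libraries 1. Tie1 rested on few reads in number 2, 4 in the dTAG-13 and 12 in the untreated library.

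Among the surface proteins, Cdh5 encodes VE-cadherin, which joins endothelial cells to each other (chromosome 8, 104101625 to 104144511). It was at 1.19 and 12.5 CPM in dTAG-13 libraries 2 and 1 and at 2.58 and 16.6 CPM in untreated libraries 2 and 1, a log2 fold change of -2.98 ± 0.30 between the numbers (adjusted p = 1.57e-20). In GENCODE M21 the antisense gene Gm29682 overlaps Cdh5 and has no row of its own in the tables, and without the strand setting of the counting its reads cannot be told from those of Cdh5. Emcn encodes endomucin, a sialomucin of venous and capillary endothelium (chromosome 3, 137341067 to 137432185). It was at 0.170 and 1.36 CPM in dTAG-13 libraries 2 and 1 and at 0.356 and 3.84 CPM in untreated libraries 2 and 1. Its log2 fold change of -3.24 ± 0.58 (adjusted p = 9.58e-07) was the lowest of the 10 and rested on the fewest reads, 2 in dTAG-13 library 2 (95% exact Poisson interval 0.242 to 7.22) and 4 in untreated library 2 (1.09 to 10.2), against 16 and 51 in the dTAG-13 and untreated libraries 1. Such intervals cover counting error only. Emcn reached the filter's minimum count of 10 only in the libraries numbered 1. It thus entered the test through the libraries where it is high, and its low level in number 2 is not independent of that filter.

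**Figure D1:**
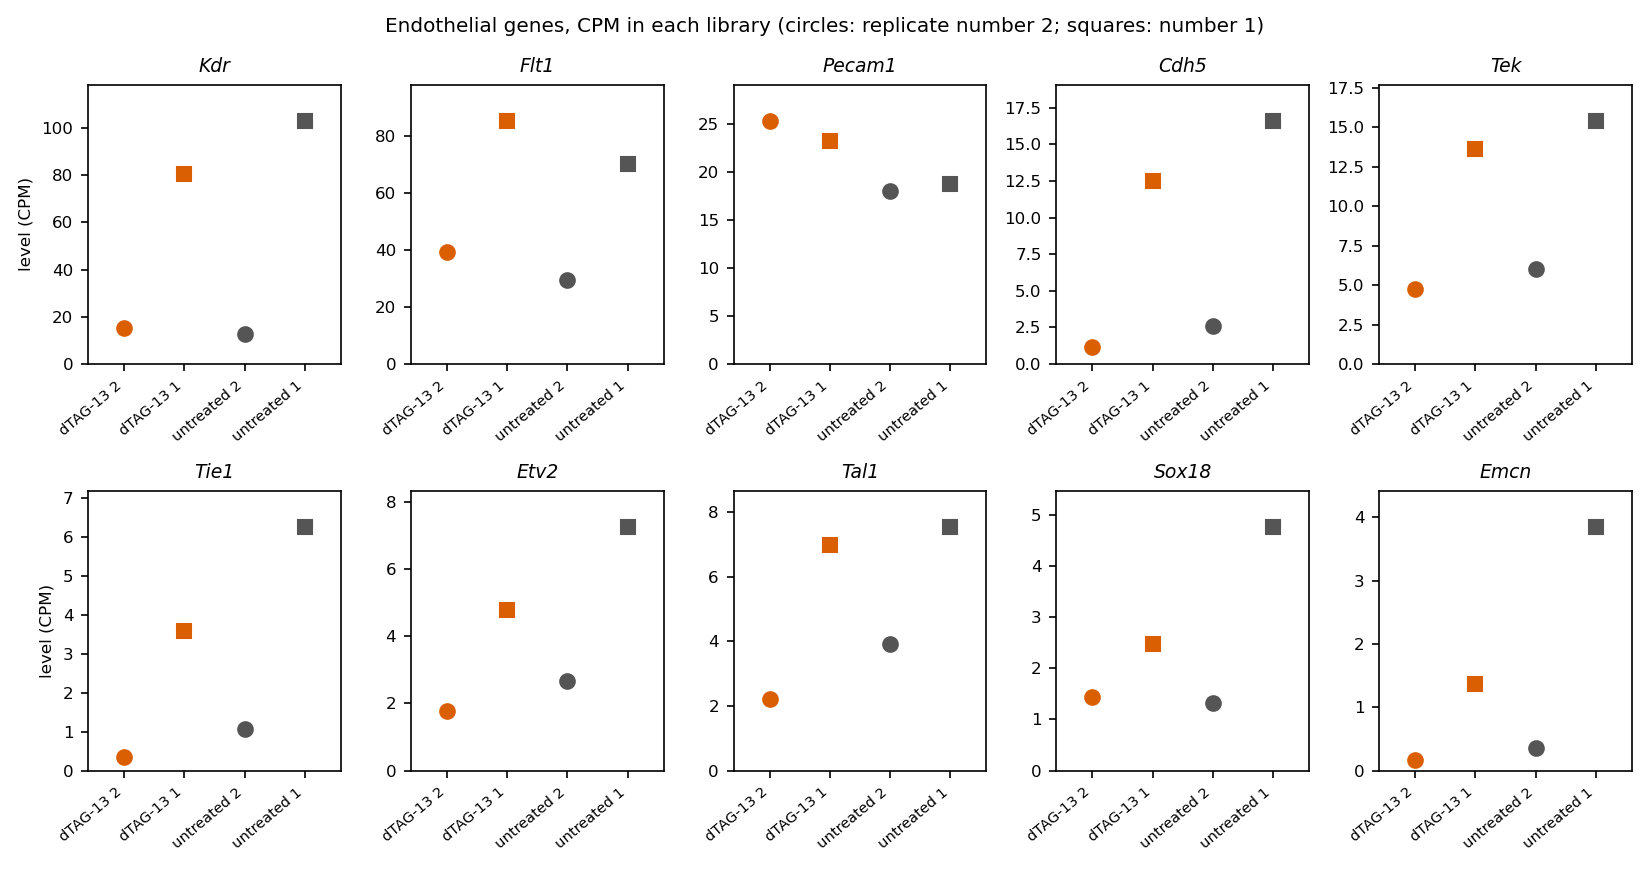
Level of each of the 10 endothelial genes in CPM (vertical axis, linear from 0) in each library, with dTAG-13 in orange and untreated in grey, circles for replicate number 2 and squares for number 1. Squares lie above circles in both groups for every gene except Pecam1, which was at 25.3 and 23.2 CPM with dTAG-13 and at 18.0 and 18.7 CPM untreated. In 9 of the 10 the numbers did not overlap. Of all genes tested, 24.9% did not overlap in that direction and 23.1% in the other.

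Pecam1 encodes the adhesion molecule CD31 of endothelial junctions, which mouse embryonic stem cells and blood cells also carry (chromosome 11, 106654217 to 106750628). It was at 25.3 and 23.2 CPM in dTAG-13 libraries 2 and 1 and at 18.0 and 18.7 CPM in untreated libraries 2 and 1. The numbers overlapped, and the log2 fold change between them was 0.04 ± 0.18 (adjusted p = 0.945) with a 95% interval from -0.31 to 0.39, which does not reach the estimate of any of the other 9. Kdr reads per Pecam1 read were 0.611 and 0.713 in dTAG-13 and untreated libraries 2, against 3.46 and 5.50 in dTAG-13 and untreated libraries 1. The 12 pluripotency markers were all measured, and 4 were higher and 0 lower in number 2, with a summed level of 755 and 556 CPM in dTAG-13 libraries 2 and 1 and of 534 and 424 CPM in untreated libraries 2 and 1. Pou5f1, the core pluripotency factor, was at 142 and 72.1 CPM in dTAG-13 libraries 2 and 1 and at 82.5 and 63.4 CPM in untreated libraries 2 and 1 (log2 fold change 0.68 ± 0.14, adjusted p = 1.53e-05). With the group term dropped, 0 of the 12 were called higher. Their part in the level of Pecam1 was not tested.

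The 3 transcription factor genes were also lower in number 2. Etv2, which starts the endothelial and blood programme (chromosome 7, 30633616 to 30635852), was at 1.78 and 4.78 CPM in dTAG-13 libraries 2 and 1 and at 2.67 and 7.23 CPM in untreated libraries 2 and 1 (log2 fold change -1.43 ± 0.34, adjusted p = 0.000629). Tal1, a basic helix-loop-helix factor needed for blood formation (chromosome 4, 115056426 to 115071755), was at 2.21 and 7 CPM in dTAG-13 libraries 2 and 1 and at 3.91 and 7.53 CPM in untreated libraries 2 and 1 (-1.27 ± 0.31, adjusted p = 0.000863). Sox18, a SOX factor of vascular and lymphatic development (chromosome 2, 181669836 to 181671640), was at 1.44 and 2.47 CPM in dTAG-13 libraries 2 and 1 and at 1.33 and 4.75 CPM in untreated libraries 2 and 1 (-1.33 ± 0.40, adjusted p = 0.0101). In each of the 3 the numbers did not overlap, as for 24.9% of all genes tested in that direction and 23.1% in the other. Their calls were the least firm of the 9, since DESeq2, which called 4.79% of all genes and 6 of the 10, called none of the 3 (adjusted p = 0.12 for Etv2, 0.129 for Tal1 and 0.47 for Sox18).

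**Figure D2:**
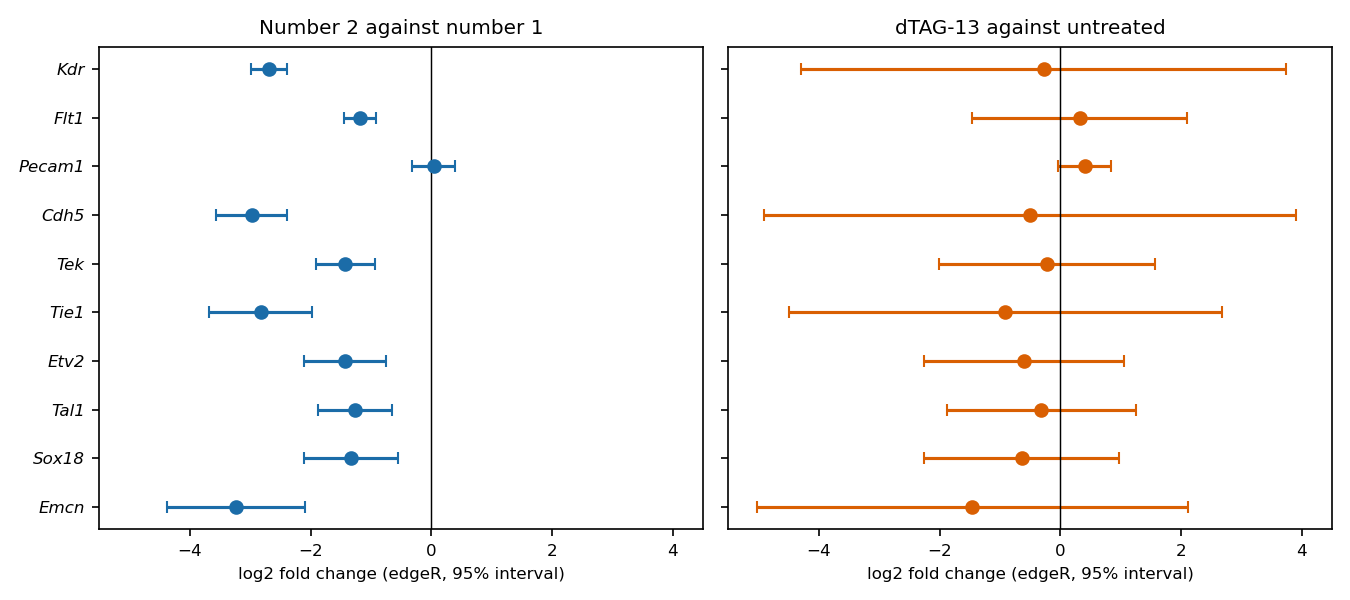
Log2 fold change of each gene with its 95% interval from edgeR, for number 2 against number 1 (left) and for dTAG-13 against untreated (right). The fit on the left held group and number, and that on the right held the group only. On the left 9 intervals lie below 0 and that of Pecam1 spans it, from -0.31 to 0.39, while on the right all 10 span 0, from the narrowest of Pecam1 (-0.03 to 0.84) to that of Cdh5 (-4.91 to 3.91).

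The difference between the numbers was seen within each group. The median difference of the 10 genes on the log2 CPM scale was -1.54 between the dTAG-13 libraries, with 9 genes lower and 1 higher in number 2. Between the untreated libraries it was -1.55, with 10 lower, of which Pecam1 was close to level at -0.06. The medians over all genes tested were 0.0039 and -0.0008 for the same pairs. The call count depended on the fit, which leaves 1 residual degree of freedom. With no term for the group, 6 of the 10 were called, beside 506 of all 13602 genes. With 1 library also left out, a number held a lone library, and calls varied from fit to fit, among the 10 as over all genes. In those fits the median log2 fold change of the 10 ran from -1.73 to -1.32. Kdr ran from -2.86 to -2.50 and Sox18 from -1.76 to -0.82.

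Compared per kilobase of exon, the order of the 10 genes differed between the numbers. In the libraries numbered 2 it ran from Pecam1 (mean 3.47 RPKM) through Flt1, Etv2, Kdr, Tek, Sox18, Tal1, Cdh5 and Tie1 to Emcn (0.0486 RPKM). In those numbered 1 it ran from Kdr (10.1 RPKM) through Flt1, Etv2, Cdh5, Pecam1, Tek, Sox18, Tal1 and Tie1 to Emcn (0.481 RPKM). Several neighbours overlapped between libraries of 1 number, namely Pecam1 with Flt1, Flt1 with Etv2, Etv2 with Kdr, Sox18 with Tal1 and Tal1 with Cdh5 in number 2, and Flt1 with Etv2 and each neighbour from Cdh5 to Tal1 in number 1. The summed level of the 10 was 92.05 and 234 CPM in dTAG-13 libraries 2 and 1 and 78.3 and 253 CPM in untreated libraries 2 and 1, and Kdr and Flt1 made up 59.6% and 70.8% of it with dTAG-13 and 54.1% and 68.3% untreated.

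dTAG-13 against untreated gave no call among the 10 genes. Over all 13602 genes edgeR called 0 with the group as its only term (0% of those tested, smallest adjusted p 0.760), with 479 at an unadjusted p under 0.05, and DESeq2 called 40 (0.294%), none of them among the 10. All 10 genes had an adjusted p of 1, and 0 had an unadjusted p under 0.05. Their median log2 fold change was -0.41, with 8 below 0, against 0.00 over all genes. The sign of this median rested on which libraries were used, since it was 0.72 without untreated library 1 and 0.29 without dTAG-13 library 2, and -1.42 without dTAG-13 library 1 and -1.12 without untreated library 2.

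Each group held 1 library high and 1 low in most of these genes, and the errors of the treatment difference were wide as a result. Kdr averaged 47.9 ± 45.9 CPM with dTAG-13 and 57.8 ± 63.6 CPM untreated (SD, n = 2 each), and its log2 fold change was -0.28 ± 1.35. Emcn averaged 0.767 ± 0.845 CPM with dTAG-13 and 2.10 ± 2.46 CPM untreated, the largest difference of the 10 at -1.46 ± 1.35. In this fit, which has no term for the replicate number, the 95% intervals ran from -4.30 to 3.74 for Kdr and from -5.03 to 2.11 for Emcn. They span several-fold differences in either direction. Their width includes the difference between the numbers, so they do not describe the treatment difference within a number.

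Within a replicate number, the median difference between dTAG-13 and untreated was smaller in size than that between numbers. On the log2 CPM scale the median over the 10 genes was -0.44 in number 2, with 6 lower and 4 higher with dTAG-13, and -0.38 in number 1, with 8 lower and 2 higher. The medians over all genes tested were 0.0043 in number 2 and 0.0214 in number 1. Tie1 differed by -1.29 in number 2 and -0.78 in number 1, Emcn by -0.64 and -1.39, Cdh5 by -1.02 and -0.41, and Etv2 by -0.54 and -0.58 in the same order. Tek and Tal1 were also below untreated in both numbers. Flt1 and Pecam1 were above untreated in both, Flt1 by 0.41 in number 2 and 0.28 in number 1 and Pecam1 by 0.49 and 0.31. Kdr and Sox18 changed sign, with Kdr at 0.27 in number 2 and -0.36 in number 1 and Sox18 at 0.10 and -0.90. Pecam1 was the 1 gene of the 10 whose treatment groups did not overlap, at a mean of 24.3 ± 1.49 CPM with dTAG-13 and 18.3 ± 0.501 CPM untreated, a log2 fold change of 0.40 ± 0.18 that did not pass (unadjusted p = 0.0646). Of all genes tested, 14.4% were higher and 11.9% lower in both dTAG-13 libraries than in both untreated ones.

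**Figure D3:**
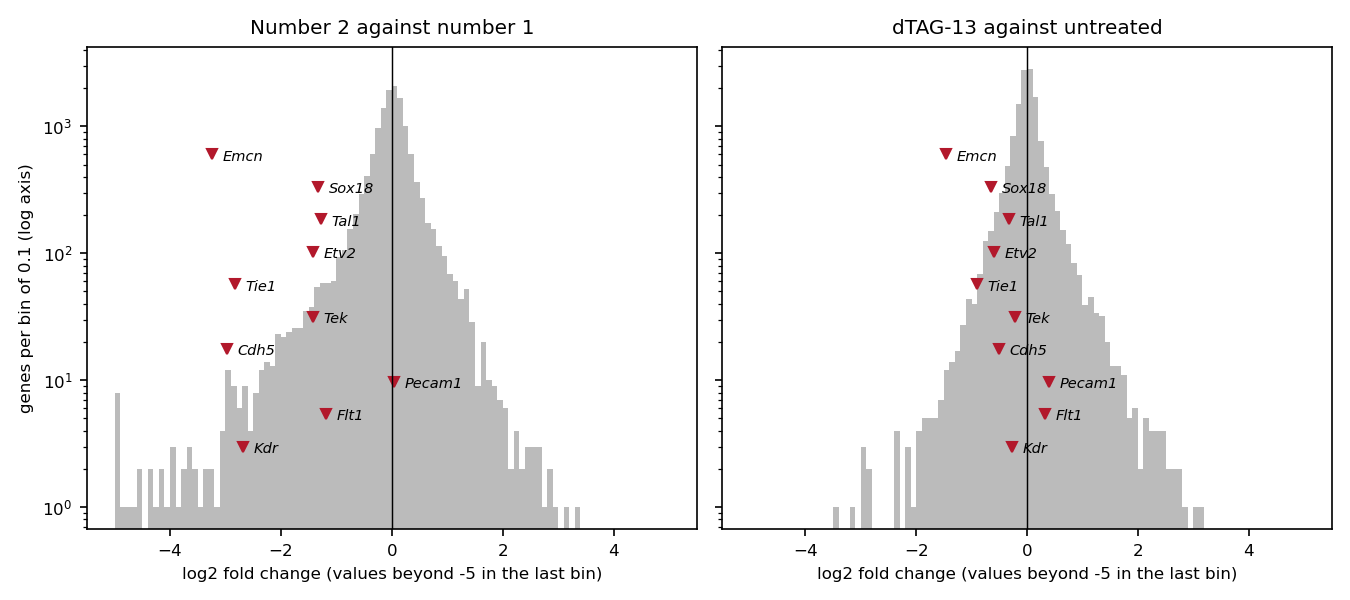
Log2 fold changes of all 13602 genes tested (grey, genes per bin of 0.1 on a log axis) for number 2 against number 1 (left) and dTAG-13 against untreated (right), with the 10 endothelial genes as red triangles whose height carries no value. On the left 9 triangles lie below -1, where 4.07% of all genes lie, and on the right they spread from -1.46 to 0.40.

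Further genes of the same pathways also differed between the numbers. In 4 lists of such genes, 56 of 67 were measured, and 31 were lower and 4 higher in number 2, with a median log2 fold change of -0.94. With dTAG-13 against untreated, edgeR with the group as its only term called 0 of the 56, DESeq2 called 1, and the median was -0.16. The 1 gene was Unc5b, a netrin receptor of arterial endothelium and other tissues, named here after its values were seen. It was at 118 and 152 CPM in dTAG-13 libraries 2 and 1 and at 62.5 and 76.5 CPM in untreated libraries 2 and 1, so the groups did not overlap. Its log2 fold change was 0.96 ± 0.18, with an adjusted p of 0.774 in edgeR (unadjusted p = 0.00128) and of 0.00665 in DESeq2. These lists were chosen with results of these libraries known.

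Among ligands and further receptors of the growth factor and angiopoietin pathways, 6 of 12 measured genes were lower and 1 was higher in number 2. Vegfa, the main ligand of KDR, was at 70.4 and 132 CPM in dTAG-13 libraries 2 and 1 and at 71.5 and 175 CPM in untreated libraries 2 and 1 (log2 fold change -1.10 ± 0.14). Angpt1, the activating ligand of TEK, was at 1.44 and 5.8 CPM with dTAG-13 and at 1.78 and 8.36 CPM untreated, again number 2 before number 1 (-2.12 ± 0.35). The coreceptor Nrp1, which developing neurons also use, had a log2 fold change of -2.24 ± 0.14, and Flt4, the receptor of lymphatic growth factors, of -1.55 ± 0.18 (adjusted p between 1.70e-51 and 9.51e-08 for these 4). Angpt4 was not measured. With 1 library left out and no group term, the count of lower genes was 2 without untreated library 1 and 3 without dTAG-13 library 1 or dTAG-13 library 2.

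Of 14 measured transcription factor genes, 7 were lower and 2 higher in number 2. The ETS factors Fli1, Ets1 and Elk3 had log2 fold changes of -2.34 ± 0.27, -1.68 ± 0.17 and -1.63 ± 0.18, and Mef2c, a MADS-box factor of heart and vessels, of -2.93 ± 0.26. The 2 that were higher were Klf2 and Klf4, chosen here after their values were seen. Klf4 is also a pluripotency factor. The count of lower genes was 3 without dTAG-13 library 1 and 4 without untreated library 1 or dTAG-13 library 2, and neither Klf2 nor Klf4 was called in any of these 3 fits.

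Of 18 measured surface and junction genes, 13 were lower and 0 higher in number 2, with a median of -1.25. Cd93, a lectin-like receptor, Adgrf5, an adhesion receptor, Cd34, a sialomucin shared with blood progenitors, and Arhgef15, an exchange factor of endothelial cells, had log2 fold changes of -2.24 ± 0.31, -2.08 ± 0.33, -1.81 ± 0.31 and -1.78 ± 0.32. DESeq2 called 5 of the 18, against 4.79% of all genes. With no group term 8 of the 18 were lower, beside 506 of all genes called in either direction. With 1 library also left out, the count fell further. Of 12 arterial and venous genes, 5 were lower and 1 higher. Nr2f2, the factor of venous identity that other mesoderm also expresses, had a log2 fold change of -1.95 ± 0.18, the NOTCH targets Hey1 and Hey2 of -1.35 ± 0.16 and -1.75 ± 0.25, and Acvrl1, a BMP receptor of endothelium, of -3.38 ± 0.54. Acvrl1 had 2 and 5 reads in dTAG-13 and untreated libraries 2, against 31 and 51 in libraries 1. Like Emcn, it passed the filter only through number 1. The count of lower arterial and venous genes was 1 without dTAG-13 library 1 and 3 without untreated library 1 or dTAG-13 library 2.

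**Figure D4:**
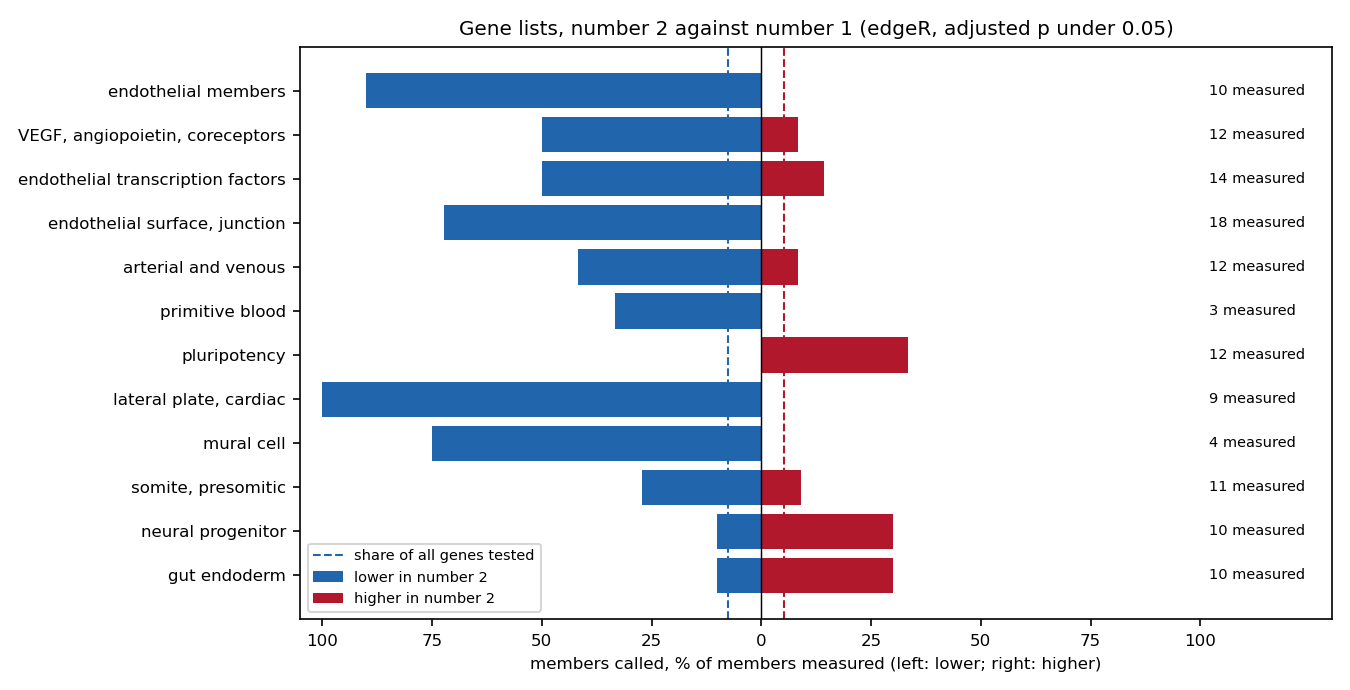
Share of the measured members of each list that was lower (left, blue) or higher (right, red) in number 2 at an adjusted p under 0.05 in edgeR, with the share of all genes tested as dashed lines (7.51% lower, 5.20% higher). The endothelial genes (9 of 10) and the lateral plate and cardiac markers (9 of 9) had the largest shares lower. Pluripotency, neural progenitor and gut endoderm markers had more higher than lower in this fit, with 0 higher in each of the 3 when the group term was dropped. The gut endoderm markers called higher were Cldn6, Epcam and Cldn7, and Foxa1, Foxa2 and Trh were not called.

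Markers of other cell types moved with the replicate number as well. Lateral plate and cardiac markers, of mesoderm that neighbours the first vessels, were lower in number 2 in 9 of 9 measured (of 12 listed), with a median log2 fold change of -2.91 and a summed level of 34.3 and 148 CPM in dTAG-13 libraries 2 and 1 and of 19.6 and 104 CPM in untreated libraries 2 and 1. Tbx20, a T-box factor of the heart, was at 1.10 and 15 CPM in dTAG-13 libraries 2 and 1 and at 0.801 and 15.7 CPM in untreated libraries 2 and 1. The cardiac genes Isl1, Gata4 and Gata6 had log2 fold changes of -2.99 ± 0.29, -2.11 ± 0.22 and -1.87 ± 0.20. Nkx2-5, Tbx5 and Tnnt2 were not measured, with at most 15 reads in any library. The count of 9 held in DESeq2, and with no group term it was 2 without dTAG-13 library 1, 4 without untreated library 1 and 6 without untreated library 2 or dTAG-13 library 2.

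Mural cell markers, of the cells that wrap vessels, were lower in 3 of 4 measured (of 8 listed), summing to 195 and 236 CPM in dTAG-13 libraries 2 and 1 and to 172 and 232 CPM in untreated libraries 2 and 1. Rgs5, a pericyte gene, was at 2.12 and 21.7 CPM in dTAG-13 libraries 2 and 1 and at 0.979 and 17.2 CPM in untreated libraries 2 and 1. Pdgfrb and Acta2 had log2 fold changes of -1.0 ± 0.17 and -1.18 ± 0.33. Most of each sum was Notch3, the measured marker that did not pass, at 175 and 177 CPM in dTAG-13 libraries 2 and 1 and at 147 and 167 CPM in untreated libraries 2 and 1. Without untreated library 1, dTAG-13 library 1 or dTAG-13 library 2 the count of lower mural markers was 1.

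Most blood genes fell below the filter. Of 16 primitive blood genes 3 were measured, and the globin genes Hbb-y, Hba-x, Hba-a1 and Hba-a2 and the leukocyte gene Ptprc had 0 reads in all 4 libraries, with at most 13 reads for any of the 13 not measured. Runx1, a blood factor that other tissues also express, was lower in number 2 (log2 fold change -0.95 ± 0.29, adjusted p = 0.0118). The 3 measured genes summed to 8.83 and 14.6 CPM in dTAG-13 libraries 2 and 1 and to 7.65 and 14.4 CPM in untreated libraries 2 and 1.

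Other tissues of the gastruloid did not share the direction throughout. Somite and presomitic markers had 3 of 11 lower and 1 higher in number 2, neural progenitor markers 1 of 10 lower and 3 higher, and gut endoderm markers 1 of 10 lower and 3 higher. The 3 higher in the gut endoderm list were Cldn6, Epcam and Cldn7. Its Foxa1, Foxa2, Trh, Krt8, Krt18 and Apela did not pass, at log2 fold changes of -0.51, 0.08, -0.23, 0.31, 0.22 and 0.03. The list as a whole thus had no common direction. With no group term, none of the pluripotency, somite, neural or gut endoderm markers was called higher. The somite factors Meox1 and Uncx had log2 fold changes of -1.11 ± 0.14 and -1.99 ± 0.40, and T, the tail bud factor brachyury, of 0.52 ± 0.14. The neural factor genes Pax6 and Sox21 stood at 1.65 ± 0.31 and 1.12 ± 0.21, and the endoderm gene Spink1 at -1.52 ± 0.21 and the claudin gene Cldn6 at 0.69 ± 0.14. Neural progenitor markers summed to 70.0 and 55.0 CPM in dTAG-13 libraries 2 and 1 and to 192 and 120 CPM in untreated libraries 2 and 1, and gut endoderm markers to 1290 and 917 CPM in dTAG-13 libraries 2 and 1 and to 581 and 620 CPM in untreated libraries 2 and 1. Trh, Epcam, Krt8, Krt18 and Cldn6 made up most of each gut endoderm sum. The part of any of these tissues in the level of the endothelial genes was not tested.

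The profiles most like the mean of the 10 genes were found over the 4 libraries, as the distance between log2 CPM values centred on each gene's mean. Cdh11, a mesenchymal cadherin, came first at a distance of 0.114, at 15.2 and 51.7 CPM in dTAG-13 libraries 2 and 1 and at 20.7 and 72.6 CPM in untreated libraries 2 and 1. Arhgap31 followed at 0.133, Plvap, which forms the diaphragms of endothelial openings, at 0.160, Ets1 at 0.167 and Gng11 at 0.194. Among the 10 themselves the distance ran from 0.355 for Tek and 0.402 for Etv2 to 1.91 for Pecam1. The genes were picked for this likeness, so their lower level in the libraries numbered 2 is fixed by the choice.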

How the data were processed

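RNA of whole gastruloids was sequenced after depletion of ribosomal RNA, in 2 dTAG-13 and 2 untreated libraries, per the labels' protocols. The authors deposited 1 table per library, with gene symbols and unnormalized read counts in whole numbers. The submitters' processing notes list HTSeq 0.12.4, DESeq2 1.34.0, STAR 2.7.6a and fastp 0.20.1, with GRCm38.p6 and mm10 as builds, and give no roles. For the annotation and strand setting of the counting, the sources used here give nothing. Summary lines (reads outside genes 24.12% to 35.65%, ambiguous 0.209% to 0.240%) entered neither library sizes nor tests.

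Counts were tested in R 4.3.3 with edgeR 4.0.16 (filterByExpr by group with a minimum count of 10 and a minimum total of 15, TMM, robust glmQLFit, two-sided glmQLFTest, Benjamini-Hochberg adjustment over all 13602 genes, threshold 0.05). dTAG-13 against untreated had the group as its only term, and number 2 against number 1 was the number term of a fit with group and number. The SE of a log2 fold change is its size over the root of the F statistic. Differences within a group or number use log2 CPM with a prior count of 2. With 2 libraries against 2, an exact permutation test cannot go below 0.333, so none was used. The scripts were tested on simulated counts. Alternatives were RLE or no scaling factors, no filter or at least 50 counts in all, DESeq2 1.42.0, the number as a term or the group term dropped, and each library left out.

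The 10 genes and all lists were chosen with earlier results of these data known. Genes named per list were drawn from up to 4 called ones of lowest p whose mean log2 CPM was 0 or more, and the 5 most alike genes had an average of at least 1. Brachyury stands in the tables as T. Gene positions and exon lengths come from GENCODE M21 (GRCm38).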

Additional observations from a re-analysis of the deposited data

How the results depend on the processing

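For number 2 against number 1, the direction of the 9 genes called held under all 10 alternatives, and the median of the 10 lay between -1.73 and -1.32 with 1 library left out, at -1.44 with no scaling factor and at -1.43 with at least 50 counts. The genes called, 1729 as reported, were 1036 with no scaling factor, 652 with DESeq2, 506 without the group term and 92 to 655 with 1 library left out (124 without untreated library 1, 282 without dTAG-13 library 2), and of the 10 genes 8 were called with no scaling factor (not Sox18), 6 with DESeq2 or without the group term (not Etv2, Tal1 or Sox18) and 2 to 7 with 1 library left out. Pecam1 lay between -0.22 and 0.27 with 1 library left out, at -0.0942 without untreated library 1. Of the surface and junction genes 13 were lower as reported, 5 with DESeq2, 8 without the group term and 0 to 6 with 1 library left out. Somite markers lower were 1 with DESeq2 and 0 without the group term, against 3 as reported, and the blood gene and neural marker counted as lower were 0 each under either or with no scaling factor. Markers higher were 0 without the group term, against 4 pluripotency, 3 neural and 3 gut endoderm markers as reported, and also 0 without untreated library 1 or dTAG-13 library 1. The causes were not tested.

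For dTAG-13 against untreated, the genes called were 40 with DESeq2 and 636 with the replicate number added as a block (395 higher, 241 lower). In the block fit 0 of the 10 passed (smallest adjusted p 0.109, Emcn). Unc5b and Klf2 of the 56 further endothelial genes passed in it (adjusted p 1.82e-09 and 0.000697). The median log2 fold change of the 10 was -0.47 in the block fit and -0.49 with no scaling factor. The number 2 minus number 1 differences of the 2 groups correlated over genes (r = 0.631), but no label says that a number pairs libraries. With 1 library left out, where a lone library is assumed to vary like the others, the median ran from -1.42 to 0.72, Kdr from -1.91 to 1.89, Flt1 from -0.34 to 1.06, Cdh5 from -3.01 to 1.39, Tek from -1.17 to 0.59, Tie1 from -3.40 to 0.86, Etv2 from -1.47 to 0.28, Tal1 from -1.37 to 0.26, Sox18 from -1.27 to 0.54 and Emcn from -3.57 to 1.07, while Pecam1 kept its sign, from 0.32 to 0.47. Depth limits Emcn and Tie1, with 2 to 12 reads in libraries numbered 2.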
